A study of Homo sapiens with 18 samples.

Results

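Glucocorticoid receptor (GR) occupancy was examined around 10 genes that control growth arrest and cell cycle entry: CDKN1A, CDKN1B, CDKN1C, CCND1, CCND2, CCND3, MYC, GADD45A, GADD45B and GADD45G. A GR binding region (GBR) was assigned to a gene when the peak summit lay within 100 kb of the transcription start site (TSS) of its canonical transcript in GENCODE release 44, on GRCh38. The genes were chosen by name and not by a binding cutoff, but with earlier results of these data known. In all, 23 sites met the rule, 22 of them among the 9533 GBR of Hic-5 depleted cells, and 6 of the 10 genes had at least 1 site. U2OS-GRα is an established human osteosarcoma line that carries a stably transfected GRα, so GR was present in every group from a transgene. Every group also received dexamethasone (dex), a synthetic glucocorticoid, at 100 nM for 1 h, begun 48 h after siRNA transfection, and hormone-free cells were not analysed here. The 6 groups were control siRNA (siNS/siNS), loss of the coregulator Hic-5 (siHic5/siNS), loss of 1 chromatin remodeler, CHD9 (siCHD9/siNS) or BRM (siBRM/siNS), and loss of Hic-5 together with CHD9 (siCHD9/siHic5) or BRM (siBRM/siHic5). Each had 2 ChIP libraries and 1 input library, but the deposited peak list of a group was called on its pooled replicates. Each group is therefore 1 list with no replicate spread, and no difference between groups was tested.

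Progression from G1 into S phase is driven by D-type cyclins, which activate cyclin-dependent kinases (CDKs), and by MYC, a transcription factor that promotes growth. It is held back by the CDK inhibitors CDKN1A, CDKN1B and CDKN1C, and the GADD45 proteins are small stress-induced proteins that act in growth arrest and in MAP kinase signaling. Glucocorticoids slow proliferation in many cell types, and hormone-bound GR binds DNA as a dimer at the glucocorticoid response element (GRE), an inverted repeat of a short motif. The peak lists hold no expression data, so neither the effect of any GBR on a gene nor the depletion of the siRNA targets could be examined here.

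Sequences of 150 bases centered on the summit (GRCh38, plus strand) are shown for 7 GBR on which the results turn. The first 4 hold an exact GRE, taken here as the arms GNACA and TGTNC spaced 3 bases apart, and the last 3 are the GADD45B sites called in all 6 lists. Capitals mark exact matches, on either strand, to the GRE, to AP-1 (TGACTCA) or to ETS (CNGGAAGT). The windows are chr6:36679520-36679669 (CDKN1A), chr6:42045789-42045938 (CCND3), chr19:2544073-2544222 (GADD45B), chr9:89621691-89621840 (GADD45G), and chr19:2474694-2474843, chr19:2491675-2491824 and chr19:2518322-2518471 (GADD45B). Each is named by its gene and the distance of its summit from the TSS, with positive values downstream.
CDKN1A +0.881 kb: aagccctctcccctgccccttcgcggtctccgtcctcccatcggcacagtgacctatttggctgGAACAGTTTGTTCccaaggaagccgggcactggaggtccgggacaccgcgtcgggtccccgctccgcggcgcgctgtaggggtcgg
CCND3 -104 kb: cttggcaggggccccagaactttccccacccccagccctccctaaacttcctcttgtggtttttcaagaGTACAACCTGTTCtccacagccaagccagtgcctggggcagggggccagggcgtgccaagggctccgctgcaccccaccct
GADD45B +68.0 kb: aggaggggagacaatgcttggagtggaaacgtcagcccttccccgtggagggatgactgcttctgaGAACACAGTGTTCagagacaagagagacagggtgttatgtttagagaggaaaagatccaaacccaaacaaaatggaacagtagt
GADD45G +16.8 kb: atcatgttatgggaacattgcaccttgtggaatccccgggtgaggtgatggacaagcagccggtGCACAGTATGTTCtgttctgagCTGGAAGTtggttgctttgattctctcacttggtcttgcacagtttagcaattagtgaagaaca
GADD45B -1.36 kb: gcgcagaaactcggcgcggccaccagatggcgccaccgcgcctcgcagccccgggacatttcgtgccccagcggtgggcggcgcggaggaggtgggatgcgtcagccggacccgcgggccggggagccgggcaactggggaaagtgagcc
GADD45B +15.6 kb: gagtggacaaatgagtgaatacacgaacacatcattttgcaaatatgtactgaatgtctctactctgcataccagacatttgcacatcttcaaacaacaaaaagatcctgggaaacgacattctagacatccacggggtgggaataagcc
GADD45B +42.3 kb: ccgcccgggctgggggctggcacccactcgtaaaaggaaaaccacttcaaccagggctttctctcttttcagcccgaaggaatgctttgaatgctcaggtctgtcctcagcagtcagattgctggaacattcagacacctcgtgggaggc

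GR occupied the neighborhood of 5 of the 10 genes in cells containing Hic-5 and of 6 in Hic-5 depleted cells. CDKN1A, CDKN1B, MYC, GADD45A and GADD45B had a GBR in siNS/siNS, and GADD45G was added in siHic5/siNS, whereas CDKN1C and the D cyclins CCND1, CCND2 and CCND3 had none within 100 kb in any list. Among 20046 protein-coding genes, the share with a GBR within 100 kb was 17.0% in siNS/siNS and 43.6% in siHic5/siNS. In the other lists 4 member genes had a GBR in siCHD9/siHic5 (all genes 16.4%), 4 in siBRM/siHic5 (22.2%), 4 in siCHD9/siNS (10.5%) and 3 in siBRM/siNS (9.92%). The number of GBR near the member genes was 9 in siNS/siNS, 22 in siHic5/siNS, 9 in siCHD9/siHic5, 10 in siBRM/siHic5, 6 in siCHD9/siNS and 5 in siBRM/siNS. These are small parts of lists that held 2582, 9533, 2451, 3383, 1415 and 1278 GBR. The counts depend on the distance allowed, since siHic5/siNS had 12 such GBR within 50 kb and 45 within 200 kb. Within 50 kb, 2 of the 10 genes had a GBR in siNS/siNS (all genes 9.45%) and 5 in siHic5/siNS (27.1%).

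**Figure D1:**
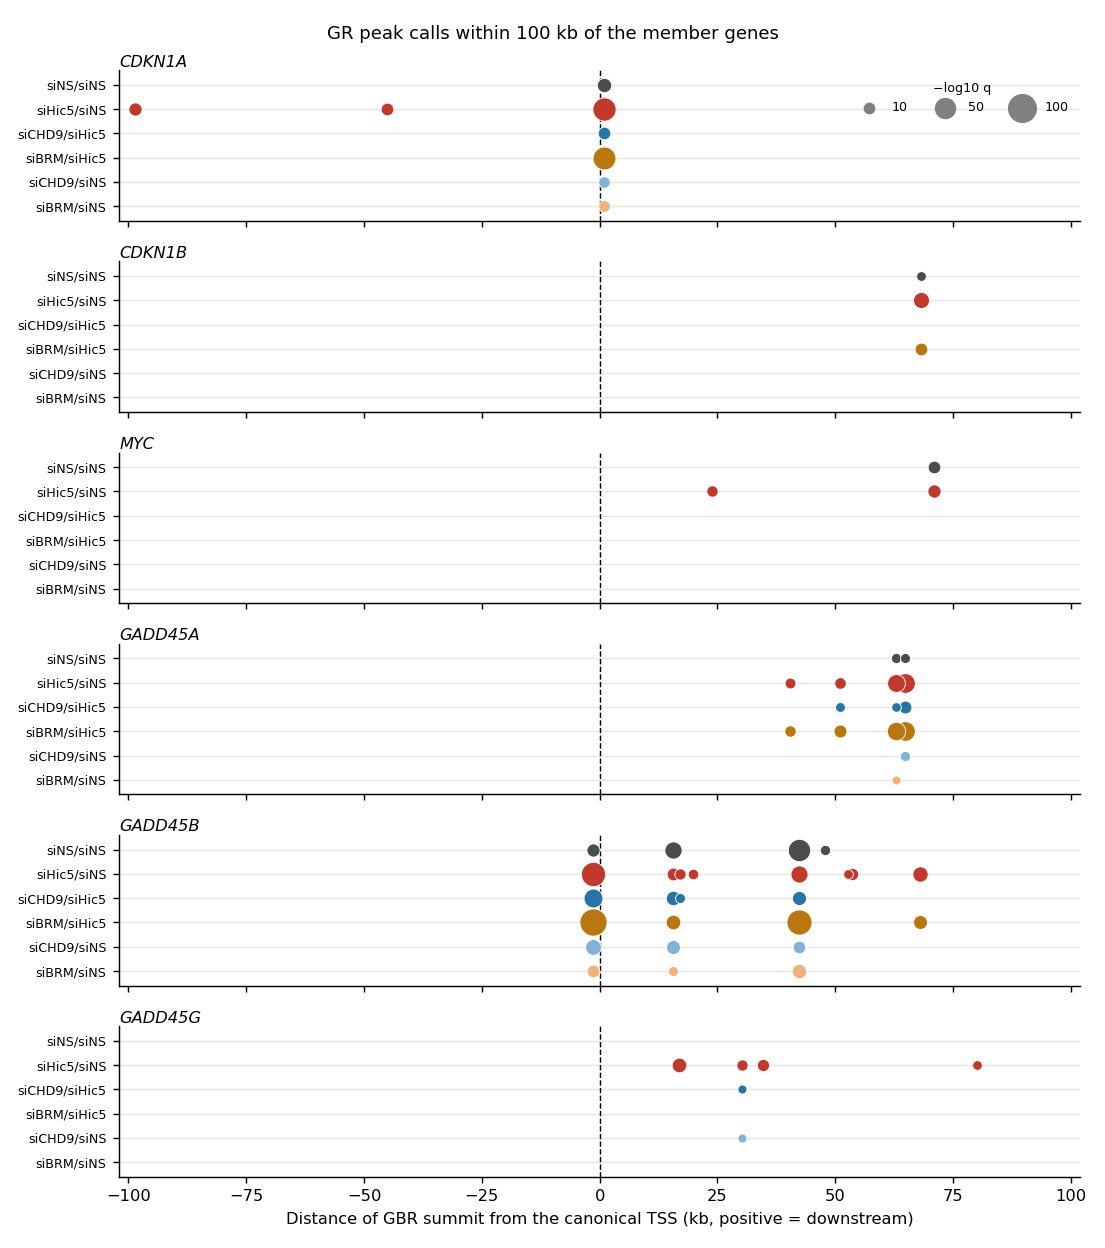
GR peak calls within 100 kb of the 6 member genes with a site. The horizontal axis is the distance of the summit from the canonical TSS in kb, each row is the list of 1 siRNA combination, and point area grows with the −log10 q of the peak. The siHic5/siNS row holds 22 points and the siNS/siNS row 9, and most sites lie downstream of the TSS.

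Most sites were distal. Only 2 of the 23 lay within 2 kb of a member TSS, at CDKN1A and GADD45B, and the median distance was 45.1 kb. Of the 23 summits, 20 were downstream of the TSS and 3 upstream. GADD45A, GADD45B and GADD45G held 4, 9 and 4 of the sites, so these counts rest mainly on few loci. The same shares were not computed over all GBR, so neither position is read as a trait of the group. A member gene had the nearest protein-coding TSS for 20 sites. By canonical transcripts, 12 summits were intergenic, 4 lay in introns of GNG12 next to GADD45A and 5 in introns of GNG7 next to GADD45B, which both encode G protein γ subunits. Sites were 359 to 1675 bp wide, with a median of 479 bp.

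GADD45B had the densest cluster, with 8 siHic5/siNS GBR and 9 sites over all lists. Of all protein-coding genes, 0.504% had at least 8 siHic5/siNS GBR within 100 kb. GADD45A and GADD45G had 4 each, CDKN1A 3, MYC 2 and CDKN1B 1. The closest neighbors among the GADD45B sites were the siHic5/siNS GBR at +52.8 and +53.6 kb, with 0.799 kb between their summits.

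**Figure D2:**
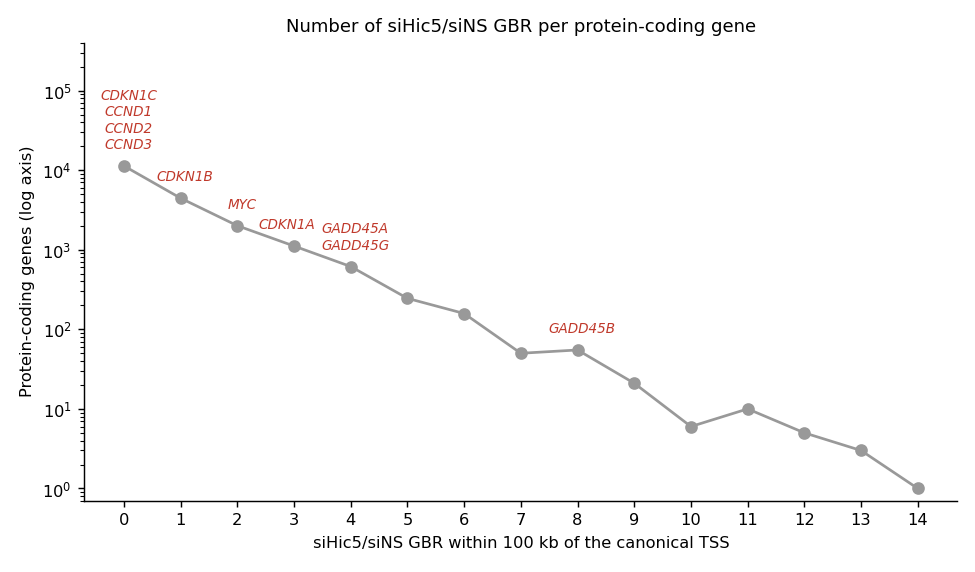
Number of protein-coding genes (log axis) by their number of siHic5/siNS GBR within 100 kb of the canonical TSS, with the 10 member genes written above their position. GADD45B stands at 8, where 55 genes lie, and CDKN1C, CCND1, CCND2 and CCND3 stand at 0 with 11313 genes in all.

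The CDK inhibitor CDKN1A (ENSG00000124762.14, chromosome 6, plus strand, 36676460 to 36687337) had the only site within a member gene's canonical transcript. The GBR, chr6:36678299-36679973 in siHic5/siNS, covered the TSS at 36678714 and had its summit in an intron 0.881 kb downstream. It was called in all 6 lists, as were 9.25% of all siHic5/siNS GBR. Its −log10 q was 25.3 in siNS/siNS, 71.9 in siHic5/siNS, 18.6 in siCHD9/siHic5, 69.8 in siBRM/siHic5, 15.0 in siCHD9/siNS and 15.5 in siBRM/siNS. A q-value depends on the depth of its list, so the rank within the list is given as well, with the caution that the lists differ in length. The GBR had rank 802 of 2582 in siNS/siNS, 817 of 9533 in siHic5/siNS, 1084 of 2451 in siCHD9/siHic5, 573 of 3383 in siBRM/siHic5, 697 of 1415 in siCHD9/siNS and 580 of 1278 in siBRM/siNS. Its rank numbers in siNS/siNS and siHic5/siNS were close, but stood at 31.1% and 8.57% of the list length. Its score in siHic5/siNS was higher. The siHic5/siNS peak was 1675 bp wide, against 530 bp in siNS/siNS. Its sequence above shows the GRE GAACAGTTTGTTC at 36679584 to 36679596, centered 4 bp from the summit.

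The other CDKN1A sites, chr6:36579911-36580319 at −98.6 kb and chr6:36633431-36633897 at −45.1 kb, were called in siHic5/siNS only, with −log10 q of 20.9 and 18.8. Both lay nearer to the TSS of SRSF3, a splicing factor gene, at 14.2 and 39.3 kb. Neither held a GRE, AP-1 or ETS match in 1 kb. For the CDK inhibitor CDKN1B (ENSG00000111276.12, chromosome 12, plus strand, 12685498 to 12722369) the only site was chr12:12785260-12785703, 68.1 kb downstream. This GBR lay 0.175 kb from the TSS of another gene, APOLD1. It was called in siNS/siNS (−log10 q 9.70), siHic5/siNS (32.3) and siBRM/siHic5 (19.1), and in neither list with CHD9 depleted nor in siBRM/siNS. Its rank was 2390 of 2582 in siNS/siNS, 2579 of 9533 in siHic5/siNS and 2593 of 3383 in siBRM/siHic5.

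CDKN1C (ENSG00000129757.15, chromosome 11, minus strand, 2883213 to 2885775), the remaining CDK inhibitor of the family, had its nearest siHic5/siNS GBR 151 kb away and its nearest siNS/siNS GBR 239 kb away. The 3 D cyclin genes also had none within the limit, but each had a GBR just outside it. For CCND3 (ENSG00000112576.13, chromosome 6, minus strand, 41934934 to 42050357) the distance is set by the choice of transcript. A GBR at chr6:42045419-42046343 lay 104 kb upstream of the canonical TSS but inside the gene, 2.67 kb from another annotated TSS of CCND3. It was called in all 6 lists and exceeded every member site, with a −log10 q of 172 in siNS/siNS, 247 in siHic5/siNS, 110.5 in siCHD9/siHic5, 262 in siBRM/siHic5, 104 in siCHD9/siNS and 81.7 in siBRM/siNS. Its rank was 15 of 2582 in siNS/siNS and 30 of 9533 in siHic5/siNS, and its window above shows an exact GRE. A second CCND3 GBR, chr6:42048531-42049094, was 0.0270 kb from an annotated TSS and was called in 4 lists, with no peak in siCHD9/siNS or siBRM/siNS.

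When any annotated TSS was used in place of the canonical one, siHic5/siNS had 26 GBR near 8 of the 10 genes (48.1% of all protein-coding genes under that rule), and siNS/siNS 11 near 6 (19.5%). CCND2 (ENSG00000118971.9, chromosome 12, plus strand, 4269771 to 4305353) had a GBR in all 6 lists at chr12:4145883-4146671, 128 kb upstream, with a −log10 q of 11.6 in siNS/siNS and 40.5 in siHic5/siNS. CCND1 (ENSG00000110092.4, chromosome 11, plus strand, 69641156 to 69654474) had GBR at 107 kb upstream, called in siHic5/siNS and siBRM/siHic5, and at 103 kb downstream, called in siHic5/siNS only. The nearest sites inside and outside the limit were thus the CDKN1A GBR at 98.6 kb and a GADD45A GBR 101 kb upstream, which was called in siHic5/siNS only with a −log10 q of 20.4. The CCND1, CCND2, CCND3 and GADD45A values were chosen for description after they were seen.

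MYC (ENSG00000136997.22, chromosome 8, plus strand, 127735434 to 127742951) had 2 intergenic sites, and no list from CHD9 or BRM depleted cells held either. The GBR at +70.9 kb, 127806833 to 127807260, was called in siNS/siNS (−log10 q 18.8) and siHic5/siNS (20.9). The GBR at +23.9 kb, 127759940 to 127760366, was called in siHic5/siNS only (14.5). Both held an exact GRE within 100 bp of the summit, and the site at +70.9 kb held an AP-1 match as well. Farther out, 118 kb downstream of the MYC TSS, a GBR was called in siHic5/siNS (34.3), siCHD9/siHic5 (14.8) and siBRM/siHic5 (27.8).

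GADD45A (ENSG00000116717.13, chromosome 1, plus strand, 67685201 to 67688334) had 4 sites, all in introns of GNG12 and 40.3 to 64.8 kb downstream of the TSS. The GBR at chr1:67749639-67750341 (+64.8 kb) and chr1:67747704-67748330 (+62.8 kb) had summits 2.00 kb apart and were each called in 5 lists. At +64.8 kb the −log10 q was 10.5 in siNS/siNS, 50.4 in siHic5/siNS, 19.5 in siCHD9/siHic5, 50.1 in siBRM/siHic5 and 11.0 in siCHD9/siNS. At +62.8 kb it was 11.0, 40.7, 9.36 and 43.5 in the same first 4 lists and 7.70 in siBRM/siNS. Each of the pair was thus missing from the list of 1 single remodeler depletion, +64.8 kb from siBRM/siNS and +62.8 kb from siCHD9/siNS. Both were weak calls in siNS/siNS, where the lowest −log10 q was 8.88. The +62.8 kb call in siBRM/siNS had rank 1201 of 1278, near the lowest score of 7.26. The pair therefore does not show different remodeler needs. In siNS/siNS and siHic5/siNS the ranks were 2198 of 2582 and 1433 of 9533 for +64.8 kb, and 2120 of 2582 and 1925 of 9533 for +62.8 kb.

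The other GADD45A sites were absent from siNS/siNS. The GBR at chr1:67735878-67736781 (+51.0 kb) was called in siHic5/siNS (15.1), siCHD9/siHic5 (10.0) and siBRM/siHic5 (20.0), and was the only member site absent from siNS/siNS but present in both double depletions. It held an AP-1 match 48 bp from its summit. The GBR at chr1:67725213-67725722 (+40.3 kb) was called in siHic5/siNS (13.1) and, near the end of the list at rank 3350 of 3383, in siBRM/siHic5 (14.5).

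GADD45B (ENSG00000099860.9, chromosome 19, plus strand, 2476122 to 2478259) had 3 sites called in all 6 lists. The promoter-proximal GBR, chr19:2474521-2475080 (−1.36 kb), had a −log10 q of 20.7 in siNS/siNS, 78.5 in siHic5/siNS, 46.4 in siCHD9/siHic5, 100.0 in siBRM/siHic5, 31.2 in siCHD9/siNS and 19.0 in siBRM/siNS. In siHic5/siNS, siBRM/siHic5 and both lists with CHD9 depleted, this was the strongest member site by rank. The GBR at chr19:2517878-2518824 (+42.3 kb), in a GNG7 intron, gave 66.1, 37.2, 24.3, 84.9, 18.3 and 24.9 in the same order. The GBR at chr19:2491326-2491967 (+15.6 kb) gave 37.9, 19.1, 25.7, 26.6, 23.6 and 10.1. Unlike the promoter-proximal GBR, both of these had higher scores in siNS/siNS than in siHic5/siNS. None of the 3 had an exact GRE in the 1000 bp centered on the summit. In that window the site at +42.3 kb held an AP-1 match 86 bp from its summit, and the site at −1.36 kb held one at 126 bp.

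Around these 3 sites, 6 further GADD45B sites were each called in 1 or 2 lists. The GBR at +19.9, +52.8 and +53.6 kb were called in siHic5/siNS only, with −log10 q of 11.9, 9.56 and 18.0. The GBR at chr19:2492898-2493359 (+17.0 kb) was also called in siCHD9/siHic5 (14.0 in siHic5/siNS and 10.2 there), and that at chr19:2543542-2544413 (+68.0 kb) also in siBRM/siHic5 (29.2 and 23.6). The window at +68.0 kb holds the GRE GAACACAGTGTTC at 2544139 to 2544151, 2 bp from the summit. The remaining GBR, chr19:2523679-2524157 (+47.8 kb), was called in siNS/siNS only, with a −log10 q of 11.3. It was the only 1 of the 9 siNS/siNS GBR near member genes with no overlapping siHic5/siNS peak, against 3.18% of all 2582.

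GADD45G (ENSG00000130222.11, chromosome 9, plus strand, 89605012 to 89606555) had 4 sites and none in siNS/siNS, where the nearest GBR was 274 kb away. All 4 were intergenic and downstream. The strongest, chr9:89621553-89621971 (+16.8 kb), was called in siHic5/siNS only, with a −log10 q of 26.5. It held the GRE GCACAGTATGTTC 4 bp from the summit and the ETS match CTGGAAGT 15 bp from it on the other side, and was the only siHic5/siNS GBR near a member gene with an ETS match in 200 bp. The GBR at +34.6 kb (17.3) and +80.0 kb (9.56) were also called in siHic5/siNS only.

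The fourth GADD45G site, chr9:89635077-89635475 (+30.3 kb), was called in siHic5/siNS (14.2), siCHD9/siHic5 (7.84) and siCHD9/siNS (7.63). The scores in both lists with CHD9 depleted were close to their lowest values, 7.74 and 7.62. Of the 14 siHic5/siNS GBR near member genes that were absent from siNS/siNS, it was the 1 called in a single remodeler depletion, compared with 2.46% of such GBR genome-wide.

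**Figure D3:**
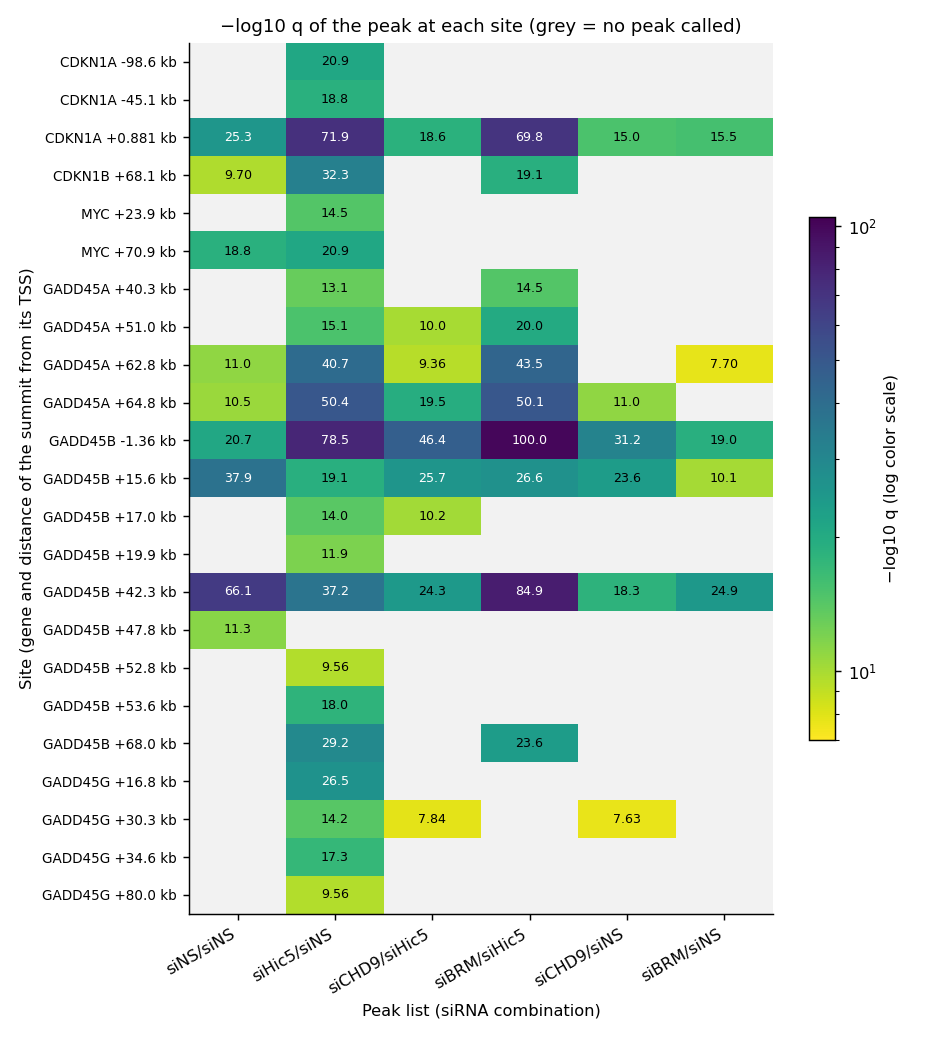
The −log10 q of the peak at each of the 23 sites (rows) in each of the 6 lists (columns), on a log color scale, with grey where no peak was called. The 4 rows filled in all columns are CDKN1A +0.881 kb and GADD45B −1.36, +15.6 and +42.3 kb, and 10 rows have a value in 1 list only.

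Across the genes, 14 of the 22 siHic5/siNS GBR (63.6%, 95% Wilson interval 43.0 to 80.3%) had no siNS/siNS peak overlapping by at least 1 bp and are called blocked GBR, while the other 8 are called shared. The share over all 9533 GBR was 74.0%, which lies inside this interval. Wilson intervals here cover counting error only. They treat each GBR as independent, although the 22 lie near 6 genes and 8 of them near GADD45B, so they are likely too narrow. The blocked member GBR were spread over CDKN1A (2), MYC (1), GADD45A (2), GADD45B (5) and GADD45G (4). In siHic5/siNS their −log10 q ranged from 9.56 to 29.2 with a median of 14.8, and that of the 8 shared GBR from 19.1 to 78.5 with a median of 39.0. The medians over all blocked and all shared GBR were 15.3 and 50.7. Over the whole group, the median −log10 q in siHic5/siNS was 18.9 near member genes and 19.0 for all GBR.

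After double depletion, the share of GBR near these genes with no peak was below that of all GBR, by less than the counting error. Of the 22 siHic5/siNS GBR, 13 (59.1%, 38.7 to 76.7%) were absent from siCHD9/siHic5, compared with 75.4% of all. In siBRM/siHic5, 12 (54.5%, 34.7 to 73.1%) were absent, compared with 65.4%. The value for CHD9 falls inside the interval near its upper end. Of the 14 blocked GBR, 11 were absent from siCHD9/siHic5 (all blocked GBR 90.6%), 11 from siBRM/siHic5 (83.3%) and 9 from both (79.5%). The 5 blocked GBR that were kept in a doubly depleted list were GADD45A +40.3 and GADD45B +68.0 kb with BRM depleted, GADD45B +17.0 and GADD45G +30.3 kb with CHD9 depleted, and GADD45A +51.0 kb in both. The siCHD9/siHic5 scores of GADD45B +17.0 and GADD45G +30.3 kb, 10.2 and 7.84, were below the lowest of siBRM/siHic5, 14.2. Their absence from siBRM/siHic5 cannot be told apart from its stricter cutoff. With a floor of 14.2 in all lists, 8 of 17 siHic5/siNS GBR (47.1%, all GBR 50.5%) were absent from siBRM/siHic5. From siCHD9/siHic5, 12 of 17 (70.6%, all GBR 78.2%) were absent. Of the 8 shared GBR, those of CDKN1B and MYC were absent from siCHD9/siHic5 (2, all shared GBR 32.3%), and that of MYC alone from siBRM/siHic5 (1, 14.3%).

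In cells containing Hic-5, 4 of the 9 siNS/siNS GBR (44.4%, 18.9 to 73.3%) were absent from siCHD9/siNS and 4 from siBRM/siNS. The shares over all siNS/siNS GBR were 51.4% and 52.2%. The GBR of CDKN1B and MYC and the GADD45B site at +47.8 kb were missing from both lists, GADD45A +62.8 kb from siCHD9/siNS and GADD45A +64.8 kb from siBRM/siNS. Absence of a call does not mean absence of GR, as weaker binding falls under the cutoff. The lowest −log10 q of a list was 8.88 for siNS/siNS, 8.91 for siHic5/siNS and 14.2 for siBRM/siHic5, the strictest.

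**Figure D4:**
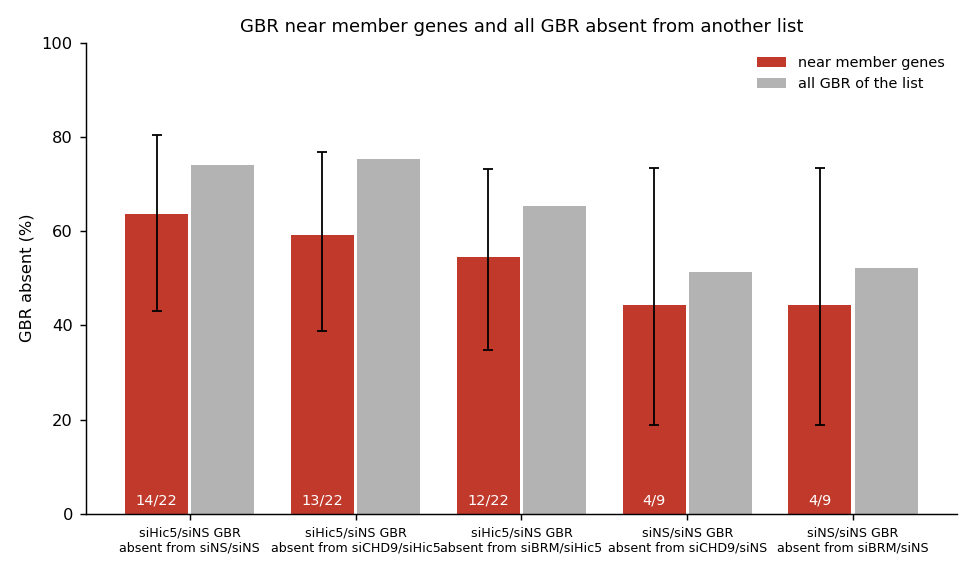
Share of GBR (%) with no overlapping peak in another list, for the GBR near member genes (red, with counts and 95% Wilson intervals) and for all GBR of the list (grey). The grey bars, 51.4 to 75.4%, each lie within the interval of the red bar beside them.

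The 2 GADD45B sites with lower scores in siHic5/siNS had ratios at the low end of the shared GBR. At the site at +42.3 kb the −log10 q in siHic5/siNS was 0.563 times that in siNS/siNS, and at the site at +15.6 kb 0.505 times. Over all 2500 shared siNS/siNS GBR the median ratio was 2.49 (quartiles 1.72 and 3.50), and the ratios of these sites were higher than only 0.720% and 0.400% of them. A lower −log10 q in siHic5/siNS was found in 5.04% of shared GBR, and in 2 of the 8 near member genes. The signal value of the deposited lists, added as a measure after the data were seen, went the same way, from 18.0 to 9.91 and from 12.5 to 7.53, and was lower in siHic5/siNS for 7.60% of shared GBR. By the peak format the signal value is enrichment over input, but a matching column of the study's supplement is described as CPM, so the unit of this fall is uncertain. With a remodeler depleted, the scores of both sites were higher, not lower, in the list with Hic-5 also depleted. At +42.3 kb the −log10 q was 24.9 in siBRM/siNS and 84.9 in siBRM/siHic5, and 18.3 in siCHD9/siNS and 24.3 in siCHD9/siHic5. At +15.6 kb the values in the same order were 10.1, 26.6, 23.6 and 25.7.

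At the other 6 shared sites the score was higher in siHic5/siNS. The ratio was 1.11 at MYC +70.9 kb, 2.84 at CDKN1A +0.881 kb, 3.33 at CDKN1B +68.1 kb, 3.69 at GADD45A +62.8 kb, 3.79 at GADD45B −1.36 kb and 4.79 at GADD45A +64.8 kb. The promoter-proximal GADD45B site thus lay in the upper part of all shared GBR, with a ratio above 79.2% of them, in the same locus as the pair of sites at the lower end. The 2 sites were singled out after their values were seen. Each ratio compares pooled lists, and the spread between replicates behind it is unknown.

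**Figure D5:**
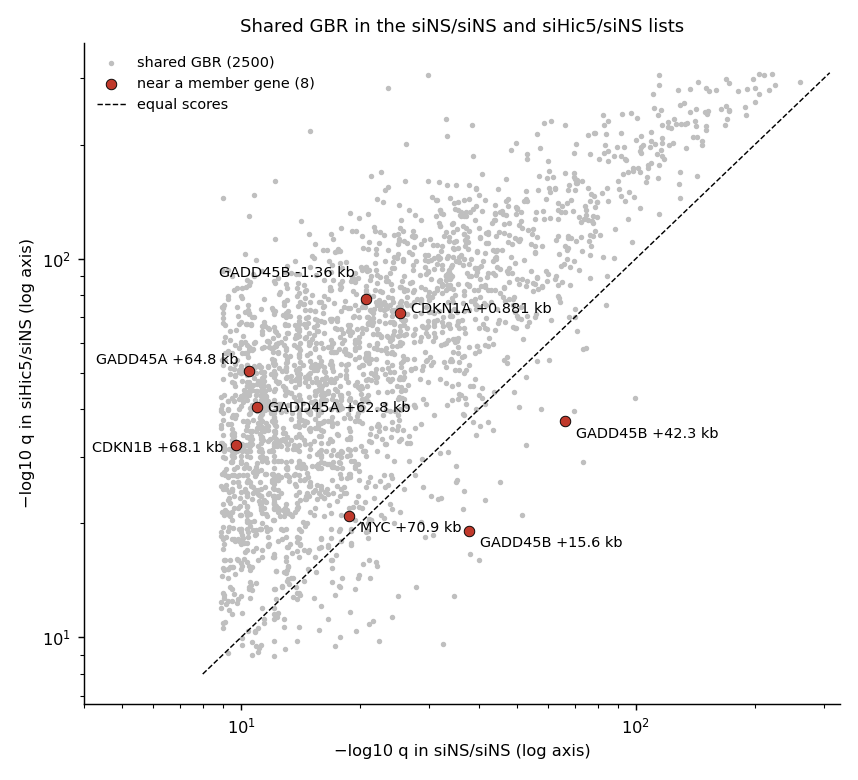
The −log10 q in siNS/siNS (horizontal, log axis) and in siHic5/siNS (vertical, log axis) of the 2500 shared GBR (grey), with the 8 near member genes in red and a dashed line where scores are equal. GADD45B +15.6 and +42.3 kb lie below the line, and the other 6 lie above it, MYC +70.9 kb only slightly.

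Motif shares near the member genes lay within counting error of those of the whole list. In the 200 bp centered on the summit, 5 of the 22 siHic5/siNS GBR (22.7%, 10.1 to 43.4%) held an exact GRE, against 17.6% of all 9533. AP-1 matches were found in 4 (all GBR 19.4%) and ETS matches in 1 (6.72%). None of the 3 was found in 14, a share that was not computed over all GBR. The GRE sites were CDKN1A +0.881, MYC +23.9 and +70.9, GADD45B +68.0 and GADD45G +16.8 kb. They were 2 of the 8 shared GBR (all shared GBR 27.8%) and 3 of the 14 blocked GBR (all blocked GBR 14.0%). When 1 mismatch was allowed at the 8 defined bases, 15 of 22 (68.2%) held a GRE, against 60.0% of all GBR. A match is a description of the letters, and its absence says only that these letters were not in the window.

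Of 54 other cell cycle genes, among them cyclins, CDKs, E2F and RB family genes, MYC partners and checkpoint genes, 8 (14.8%) had a GBR within 100 kb in siNS/siNS and 21 (38.9%) in siHic5/siNS. These shares are close to the 17.0% and 43.6% of all protein-coding genes. In the other lists, with 2 to 6 genes each and no interval computed, the shares were below those of all genes. They were 5 genes in siCHD9/siHic5 (9.26%, all genes 16.4%) and 6 in siBRM/siHic5 (11.1%, all genes 22.2%). In siCHD9/siNS there were 2 (3.70%, all genes 10.5%) and in siBRM/siNS 3 (5.56%, all genes 9.92%). Genes recurred across these lists, with MXD4 in each. The genes with a GBR in siNS/siNS were CDK6, E2F1, E2F2, E2F4, E2F6, MXD4, MYCL and BTG2. The nearest to a TSS was that of MXD4, a MYC antagonist, at 5.03 kb, with a −log10 q of 11.3 in siNS/siNS and 38.6 in siHic5/siNS. At E2F1, a transcription factor of S-phase genes, the GBR 46.3 kb from the TSS had values of 32.2 and 64.2, and at E2F4 the GBR at 18.2 kb had 9.67 and 43.5. For CDK6, a partner of D cyclins, the GBR at 44.8 kb had 11.7 and 17.4. All 8 of these genes also had a GBR in siHic5/siNS, and 13 more had one there only.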

How the data were processed

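GR ChIP-seq of U2OS-GRα cells comprised 12 ChIP and 6 input libraries. The authors aligned trimmed single-end reads with BWA (GRCh38/hg38), discarded duplicates and mitochondrial reads, called peaks on pooled replicates with MACS2 and filtered them with the IDR framework. Versions and the IDR threshold are not given in the sources used here. Each of the 6 deposited lists gives a signal value, described by the MACS2 format as enrichment over input but of uncertain unit, the −log10 of p and q as the authors obtained them from MACS2, and a score derived from the p-value. Read depth, which acts on q-values and weak calls, is not part of the lists, and the read totals the study gives were not used here. Ranks by −log10 p are given with the list length, as the lists differ in length. The reference used here was hg38, and 0 peaks ended beyond its chromosomes.

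The member genes, the 54 other cell cycle genes and the comparisons were chosen with earlier results of these data known. Overlap was at least 1 bp, and where several peaks overlapped the highest −log10 q was used. For each gene with sites, the GBR nearest to the TSS and the strongest in siHic5/siNS were to be named with their values in every list, and of the other cell cycle genes those with a siNS/siNS GBR. Values of further sites were added with the data in view. Motifs were searched in both strands of windows of 200 bp and 1 kb. No test across lists was run, as each condition is 1 list. Scripts were tested on simulated data. Alternatives covered distance, TSS, overlap, cutoffs and motif settings. Computations used Python 3.11.15, NumPy 2.4.6, SciPy 1.17.1, pysam 0.24.0, Matplotlib 3.10.9, samtools 1.23.1 and bedtools 2.31.1.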

Additional observations from a re-analysis of the deposited data

How the results depend on the processing

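Of 157 values recomputed under an alternative, 91 stayed within 1.5 times (counts) or within the main 95% interval (shares) and 66 moved. These intervals are wide, and 4 shares inside them moved by over 1.5 times: 20.0% (1 of 5) absent from siCHD9/siNS and from siBRM/siNS within 50 kb and from siCHD9/siNS with a common floor, and 40.0% (4 of 10) with a GRE at a −log10 q of at least 20. Stricter overlap rules changed 0 of 138 site-by-list calls, and any annotated TSS moved no count past that limit. Within 50 kb, the GBR near member genes numbered 5 in siNS/siNS (2 genes), 12 in siHic5/siNS and 5 in siBRM/siHic5, with 9.45% of all protein-coding genes near a GBR in siNS/siNS. Within 200 kb, in the order siNS/siNS, siHic5/siNS, siCHD9/siHic5, siBRM/siHic5, siCHD9/siNS and siBRM/siNS, they numbered 17, 45, 17, 22, 13 and 8 near 8, 10, 8, 9, 8 and 5 member genes, and 17, 36, 18, 17, 10 and 9 of the other cell cycle genes had a GBR. The shares of all protein-coding genes were 30.4%, 63.8%, 28.9%, 37.8%, 19.4% and 18.4%.

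With the −log10 q floor of siBRM/siHic5, 14.2, set for all lists, siNS/siNS had 5 GBR, 3 member genes and 2 other genes, siCHD9/siHic5 had 5 GBR and 0 other genes, siCHD9/siNS had 2 member genes and 0 other genes, and siBRM/siNS had 3 GBR and 0 other genes. The shares of all genes were 11.7% in siNS/siNS, 10.3% in siCHD9/siHic5, 5.84% in siCHD9/siNS and 5.56% in siBRM/siNS. With a −log10 q of at least 20, GBR, member genes and other genes were 4, 2 and 1 in siNS/siNS, 3, 1 and 0 in siCHD9/siHic5, 2, 1 and 0 in siCHD9/siNS and 1, 1 and 0 in siBRM/siNS. There were 10 GBR and 12 other genes in siHic5/siNS and 3 other genes in siBRM/siHic5. Shares of all genes were 8.56% in siNS/siNS, 26.9% in siHic5/siNS, 7.91% in siCHD9/siHic5, 17.8% in siBRM/siHic5, 4.37% in siCHD9/siNS and 3.92% in siBRM/siNS. The share of member GBR absent then became 80.0% (8 of 10, all GBR 78.2%) for siCHD9/siHic5 and 75% (3 of 4, all GBR 60.9%) for siBRM/siNS.

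With the 1000 strongest peaks of each list, GBR, member genes and other genes were 3, 2 and 1 in siNS/siNS, 2, 2 and 1 in siHic5/siNS and 3, 1 and 0 in siCHD9/siHic5. There were 4 GBR and 1 other gene in siBRM/siHic5, 0 other genes in siCHD9/siNS and 1 in siBRM/siNS. Of all protein-coding genes, 7.79 to 8.48% had a GBR in each list. Among those peaks, 0% of member GBR were absent from siBRM/siHic5 (all GBR 22.2%), siCHD9/siNS (26.6%) and siBRM/siNS (18.3%), and 50% held a GRE (31.6%), on 2 or 3 GBR each. With 1 mismatch, 68.2% held a GRE. The cause of these shifts was not tested, beyond the smaller number of peaks or wider distance that each setting allows. Leaving out a replicate was not possible because the lists were made on pooled replicates. No paired analysis was possible because each condition has 1 pooled list and no result comes from a test. How far read depth limits the weaker calls was not tested, as the lists do not hold it.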

Other observations

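Of the other cell cycle genes, 13 had a GBR within 100 kb in siHic5/siNS but not in siNS/siNS: CCNG2, CDKN2B, CDKN2D, CDKN3, TFDP1, MDM2, CDC25A, CDC25B, MAX, MXD1, MYCN, WEE1 and GAS1. The share of the 54 genes with a GBR rose from 14.8% in siNS/siNS to 38.9% in siHic5/siNS, and that of all protein-coding genes from 17.0% to 43.6%. The 13 genes thus do not set this group apart from genes at large. The following examples were chosen after their values were seen. WEE1, a kinase that holds back entry into mitosis, had a GBR 4.56 kb from its TSS with a −log10 q of 26.9. CDKN2B, an inhibitor of the CDKs that bind D cyclins, had a GBR at 89.9 kb with a −log10 q of 32.2. The remaining 33 of the 54 genes had a GBR within 100 kb in neither list. No expression values accompany these calls.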
